A study of Mus musculus with 24 samples.

Results

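Peroxisome proliferator-activated receptor alpha (PPAR-alpha, gene symbol Ppara) and 7 genes of hepatic fatty acid use were followed across mouse livers after bile duct ligation (BDL). The 8 genes, Ppara, Cpt1a, Slc25a20, Acadm, Ehhadh, Acot3, Angptl4 and Pdk4, were taken by symbol from 18820 gene symbols measured on the arrays, and each had 1 probe set that carried its symbol alone. No filter on low values was applied, so all 8 genes were tested in each comparison.

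The samples were livers of male mice with a C57BL/6 background, with 1 array per RNA sample and 3 arrays in each of 8 groups. Livers came from JNK1-/- mice, which lack the stress kinase JNK1 (gene symbol Mapk8) in every cell, after ligation for 48 h or 28 d. They came likewise from JNK1Δhepa mice, in which a Cre recombinase under the albumin promoter deletes floxed JNK1 in hepatocytes, after ligation for 48 h or 28 d. Control mice carried the floxed alleles without deletion (JNK1f/f) and were ligated or sham-operated for 48 h or 28 d. Mice in the 48 h groups were 8 weeks old and those in the 28 d groups 12 weeks old, so time after surgery and age cannot be told apart. The JNK1-/- mice were purchased and the other genotypes share 1 floxed strain, so origin and genotype cannot be told apart for JNK1-/-. Sham-operated mutants were not analysed here. Ligation of the common bile duct blocks bile flow and injures the liver, followed by scarring when it persists.

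PPAR-alpha is a nuclear receptor that binds fatty acids and, as a partner of the retinoid X receptors, switches on genes of fatty acid oxidation, above all in the fasted liver. Long-chain fatty acids enter mitochondria as carnitine esters made by Cpt1a and carried across the inner membrane by Slc25a20, and are then shortened by beta-oxidation. Peroxisomes hold a beta-oxidation system of their own, to which Ehhadh belongs. The other members act around this core: Acot3 is an acyl-CoA thioesterase, Angptl4 a secreted inhibitor of lipoprotein lipase, and Pdk4 a kinase that holds back pyruvate dehydrogenase and so spares glucose.

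The sequences just upstream of the start sites are shown for Ppara and for 3 members that differed between genotypes at 48 h. RefSeq (assembly GRCm38.p6) supplied a promoter for 7 of the 8 members, and Angptl4 was not among them. The windows are the 250 bases before the start site, at chr15:85735526-85735775 (plus strand) for Ppara, chr19:3323051-3323300 (plus strand) for Cpt1a, chr9:108661886-108662135 (plus strand) for Slc25a20 and chr3:153944644-153944893 (minus strand) for Acadm. The windows of Ppara and Cpt1a lie inside the annotated genes, which begin at chr15:85734910 and chr19:3322326. The bases upstream of those positions are not shown. The windows of Slc25a20 and Acadm adjoin the end of the annotated gene. Capitals mark the hexamer AGGTCA or its reverse complement TGACCT, the core letters of nuclear receptor binding elements.
Ppara: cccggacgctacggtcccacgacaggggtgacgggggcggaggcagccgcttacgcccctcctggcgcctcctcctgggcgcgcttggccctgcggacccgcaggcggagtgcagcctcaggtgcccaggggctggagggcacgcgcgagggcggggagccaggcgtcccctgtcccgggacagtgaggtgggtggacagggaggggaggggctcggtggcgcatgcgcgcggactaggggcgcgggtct
Cpt1a: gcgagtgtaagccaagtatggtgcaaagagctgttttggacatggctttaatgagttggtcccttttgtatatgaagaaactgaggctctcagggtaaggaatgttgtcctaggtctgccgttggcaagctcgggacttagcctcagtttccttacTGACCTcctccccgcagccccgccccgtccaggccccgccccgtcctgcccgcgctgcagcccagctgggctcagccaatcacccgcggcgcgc
Slc25a20: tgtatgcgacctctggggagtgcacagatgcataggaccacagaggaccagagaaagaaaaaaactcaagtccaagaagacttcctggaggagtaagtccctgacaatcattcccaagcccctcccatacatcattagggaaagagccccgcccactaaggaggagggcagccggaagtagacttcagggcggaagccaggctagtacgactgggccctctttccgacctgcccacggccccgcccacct
Acadm: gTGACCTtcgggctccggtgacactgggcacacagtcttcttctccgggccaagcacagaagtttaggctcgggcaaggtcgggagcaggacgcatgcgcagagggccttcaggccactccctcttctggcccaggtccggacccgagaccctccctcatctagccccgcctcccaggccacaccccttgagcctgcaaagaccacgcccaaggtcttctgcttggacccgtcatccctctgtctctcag
Both strands were searched. The hexamer was present in the windows of Cpt1a and Acadm, each once and each on the minus strand relative to the gene, starting at base -94 in Cpt1a and at base -249 in Acadm. Of 32817 mouse promoter windows of the same length, 14% held it. The tandem form AGGTCANAGGTCA, which contains the hexamer, was not found in the windows of the 7 members even with up to 2 changed bases, a match that 3.23% of all windows held. These are matches of letters only.

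Readings of the deleted gene bear on which groups may be compared. Mapk8 lay between 5.18 and 6.17 (log2 intensity) in the 6 JNK1-/- livers and between 6.76 and 6.97 in 5 of the 6 JNK1Δhepa livers. The array labelled JNK1Δhepa 28 d replicate 1 read 7.67, within the 7.37 to 7.67 of 9 control arrays. On the arrays labelled control sham 48 h it ran from 6.67 to 6.93, lower than on the other controls. Ligation at 48 h is therefore also given with control sham 28 d in their place. That version sets ligated mice of 8 weeks against sham mice of 12 weeks. Ligation, age and time after surgery cannot be told apart in it. The interactions of ligation with time and the comparison of sham liver over time use the arrays labelled control sham 48 h too. They have no such version. Where the Mapk8 probes lie relative to the deleted exons is not stated. The mean over 12 hepatocyte markers stayed between 11.88 and 12.23 on all 24 arrays, while adipocyte and muscle marker lists averaged 4.25 and 4.88 at most. Control liver ligated for 28 d was the least uniform group, with a median SD over all genes of 0.187 against at most 0.139 elsewhere. Centring each array on its median would shift every difference of a comparison by 1 amount, -0.17 and -0.20 for ligation at 48 h and 28 d, 0.08 and 0.03 for JNK1-/-, and 0.03 and 0.14 for JNK1Δhepa, and no called difference of a member changed sign with it.

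**Figure D1:**
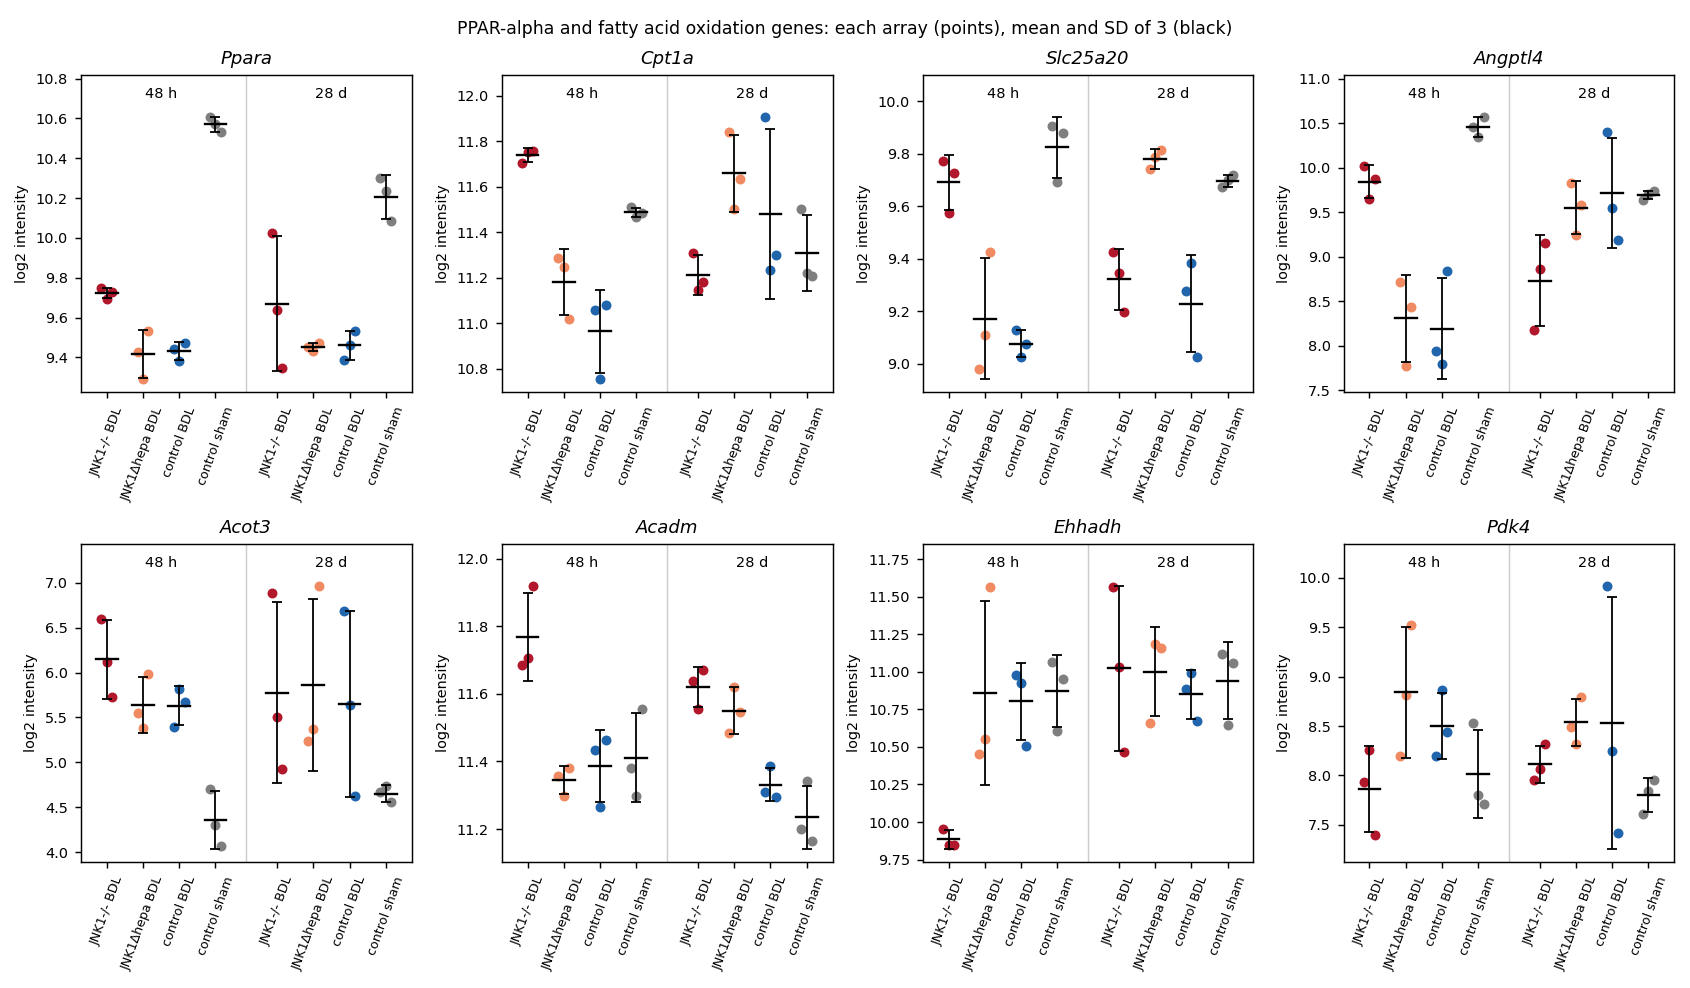
Log2 intensity of each of the 8 genes (1 panel per gene, vertical axis) on each of the 24 arrays, by group; points are single arrays, and the black marks show the mean and SD of 3. The sham arrays drawn at 48 h are those labelled control sham 48 h. Ppara lay highest on the 6 sham arrays, and mean Angptl4 in ligated liver was 9.85 in JNK1-/- and 8.19 in control at 48 h, and 8.73 in JNK1-/- and 9.72 in control at 28 d.

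Over the 8 groups the members fell into different patterns. Group means of Ppara spanned 1.16 log2 units, those of Angptl4 2.27 and those of Acadm 0.53. Ppara, the receptor itself, was highest in the group labelled control sham 48 h (10.57 ± 0.04, SD, n = 3), next in control sham 28 d (10.21 ± 0.11) and lower in all 6 ligated groups, whose means ran from 9.72 in JNK1-/- at 48 h down to 9.42 in JNK1Δhepa at 48 h. Neighbouring ligated groups in that order overlapped from array to array, whereas the sham groups overlapped neither each other nor any ligated group. Angptl4 was also highest in the group labelled control sham 48 h (10.46 ± 0.11), but its next group was JNK1-/- ligated for 48 h (9.85 ± 0.19). Its lowest groups were JNK1Δhepa at 48 h (8.31 ± 0.49) and control ligated for 48 h (8.19 ± 0.57). Its order had a further gap, between JNK1Δhepa at 28 d (9.55 ± 0.29) and JNK1-/- at 28 d (8.73 ± 0.51). Cpt1a ranged from 11.74 ± 0.03 in JNK1-/- to 10.96 ± 0.18 in control, both ligated for 48 h. Slc25a20 had a gap in its order between JNK1-/- at 48 h (9.69 ± 0.10) and JNK1-/- at 28 d (9.32 ± 0.12), and a smaller gap between JNK1Δhepa at 28 d (9.78 ± 0.04) and control sham 28 d (9.70 ± 0.02). Acadm was highest in JNK1-/- at 48 h (11.77 ± 0.13), above JNK1-/- at 28 d (11.62 ± 0.06) without overlap, and each group below overlapped its neighbour. Ehhadh had 7 groups with means between 10.80 and 11.02 that overlapped in order, and 1 apart from them, JNK1-/- at 48 h, at 9.88 ± 0.06. Acot3 averaged 5.63 or more in the ligated groups and 4.65 or less in the sham groups. Pdk4 showed no gap between neighbours, with means from 8.84 ± 0.66 in JNK1Δhepa at 48 h to 7.80 ± 0.17 in control sham 28 d.

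The early response to cholestasis was addressed by control liver ligated for 48 h against the arrays labelled control sham 48 h. Ppara, Angptl4 and both genes of the carnitine route into mitochondria, Cpt1a and Slc25a20, fell, whereas the oxidation enzymes Acadm and Ehhadh did not pass the test. Ppara read 9.44, 9.38 and 9.47 in ligated liver, against 10.61, 10.57 and 10.53 in liver labelled sham. All 3 ligated arrays lay below all 3 sham arrays. The fall was 2.20-fold (log2 difference -1.14, SE 0.11, adjusted p = 8.77e-06 by limma, n = 3 per group). Cpt1a, the enzyme at the gate to the mitochondrion, read 11.06, 10.75 and 11.08 in ligated liver, against 11.51, 11.47 and 11.48 in sham, again without overlap (log2 difference -0.52, SE 0.14, adjusted p = 0.0246 by limma). Its partner Slc25a20 read 9.13, 9.02 and 9.08 in ligated liver, against 9.90, 9.69 and 9.88 in sham, a 1.68-fold fall (log2 difference -0.75, SE 0.11, adjusted p = 0.000240 by limma). The carnitine carrier was thus lower on each ligated array. Angptl4 read 7.94, 7.80 and 8.84 in ligated liver, against 10.46, 10.35 and 10.58 in sham. It fell 4.82-fold (log2 difference -2.27, SE 0.31, adjusted p = 0.000144 by limma), and its ligated replicate 3 was higher than the other ligated livers but still below sham.

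Thus 4 of the 8 members were called lower and 0 higher at 48 h, beside 3.83% of all genes called lower and 9.43% called in either direction. With each array centred on its median, 4 members were again called, beside 13.7% of all genes called lower, and the share of called genes that were higher was 21.1% in place of 59.4%. The members' median difference was -0.30, against -0.03 over all genes. Fewer cells of a type and less RNA per cell cannot be told apart in these whole-liver samples. None of the 12 hepatocyte markers was called at 48 h, with differences between -0.31 and 0.06, while 2 of 5 cholangiocyte markers were called higher. The markers' part in the result was not tested. Acot3, a thioesterase with close paralogs whose share in its probe signal was not tested, read 5.40, 5.82 and 5.68 in ligated liver, against 4.7, 4.30 and 4.07 in sham. The groups did not overlap, as for 32.9% of all genes, but the difference of 1.27 (SE 0.49) did not pass the test (adjusted p = 0.113 by limma). Acadm, which takes the first step on medium-chain acyl-CoA, differed by -0.02, Ehhadh by -0.07 and Pdk4 by 0.48, each with overlapping groups. When the arrays labelled control sham 48 h were replaced by control sham 28 d, the differences became -0.77 for Ppara (adjusted p = 0.000289), -0.62 for Slc25a20 (adjusted p = 0.000966) and -1.5 for Angptl4 (adjusted p = 0.00317), all still called by limma. The Cpt1a difference was then -0.35 and not called (adjusted p = 0.133). Age and time after surgery also differ between the groups in this version. The Cpt1a call was also lost without ligated replicate 2 (adjusted p = 0.127) or when a single array of the sham group at 48 h was left out (0.0607 to 0.0743).

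**Figure D2:**
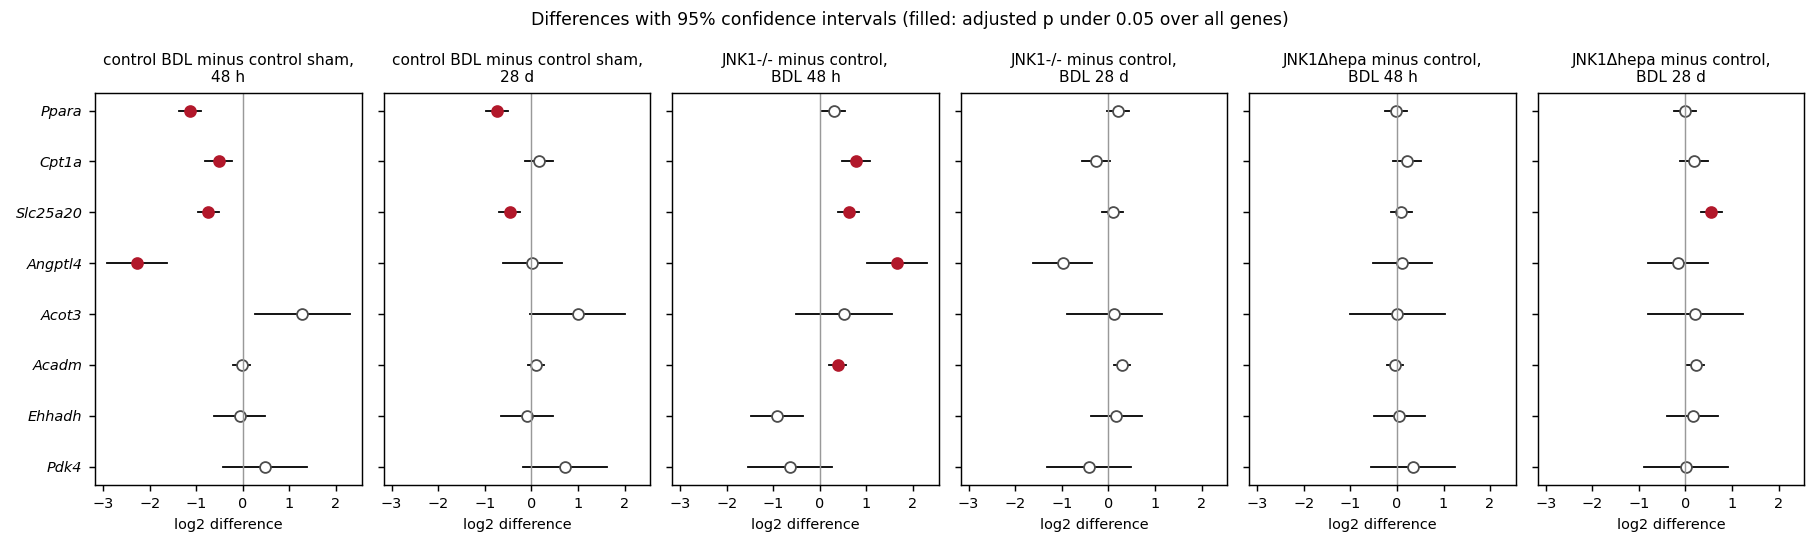
Log2 differences with 95% confidence intervals (horizontal axis) for the 8 genes, from the model of all 24 arrays, for ligation against sham in control liver and for each mutant against control after ligation, at 48 h and 28 d. Angptl4 differed by -2.27 for ligation at 48 h and by 1.65 for JNK1-/- at 48 h, and by -0.98 for JNK1-/- at 28 d.

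Persistent cholestasis was addressed by control liver ligated for 28 d against sham at 28 d. Of the members, Ppara and Slc25a20 were called lower, 2 of 8 beside 11.5% of all genes called lower and 23.2% called in either direction. With each array centred on its median 2 were again called, beside 30.3% called lower, and 17.5% of called genes were higher in place of 50.4%. Ppara read 9.39, 9.46 and 9.53 in ligated liver, against 10.30, 10.23 and 10.08 in sham, without overlap. It fell 1.68-fold (log2 difference -0.75, SE 0.11, adjusted p = 9.97e-05 by limma). Slc25a20 read 9.28, 9.38 and 9.03 in ligated liver, against 9.67, 9.70 and 9.72 in sham, also without overlap (log2 difference -0.47, SE 0.11, adjusted p = 0.00336 by limma). In a fit to these 2 groups alone the Slc25a20 call was lost (adjusted p = 0.0576). Cpt1a read 11.91, 11.23 and 11.30 in ligated liver, against 11.50, 11.22 and 11.21 in sham, and differed by 0.17 (adjusted p = 0.432). Angptl4 read 10.41, 9.55 and 9.20 in ligated liver, against 9.64, 9.71 and 9.74 in sham, and differed by 0.02. The ligated livers lay on both sides of the sham livers for Angptl4. The members' median difference was 0.06, against -0.03 over all genes.

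The spread of ligated control liver at 28 d was wide for the thioesterase and the pyruvate dehydrogenase kinase. Acot3 read 6.69, 5.63 and 4.62 in ligated liver, against 4.67, 4.74 and 4.55 in sham. Pdk4 read 9.92, 8.25 and 7.42 in ligated liver, against 7.61, 7.84 and 7.95 in sham. For both, replicate 1 was the highest array and replicate 3 the lowest of the ligated livers, within the sham values for Acot3 and below them for Pdk4. The stellate cell and myofibroblast marker list (7 genes) averaged 6.68, 7.44 and 9.21 on the same 3 ligated arrays, against 6.77 to 7.04 in sham, and the cholangiocyte list (5 genes) 5.59, 5.88 and 7.91, against 4.99 to 5.68. The hepatocyte list was lowest on replicate 3 (11.88, beside 12.04 and 12.04), and 4 of its 12 genes were called lower in this comparison. Their part in these values was not tested. Acot3 differed by 1.0 (SE 0.49, adjusted p = 0.155) and Pdk4 by 0.73 (SE 0.43, adjusted p = 0.243), both by limma and neither called. Without replicate 3 the differences were 1.51 (adjusted p = 0.0327) and 1.29 (adjusted p = 0.0260), both called. Acadm differed by 0.10 and Ehhadh by -0.09.

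An interaction term asked whether ligation acted differently at 48 h and 28 d, and Angptl4 was the 1 member called in it, beside 1.3% of all genes. Its ligation effect was 2.29 log2 units higher at 28 d than at 48 h (SE 0.43, adjusted p = 0.0118 by limma). Cpt1a had an interaction of 0.69 (SE 0.20, adjusted p = 0.0999) and Ppara one of 0.40 (SE 0.16, adjusted p = 0.255), neither past the threshold. Sham liver at 28 d against the arrays labelled control sham 48 h gave 0 members called by limma, beside 0.133% of all genes, and 2 members at an unadjusted p under 0.05, Ppara (difference -0.37) and Angptl4 (-0.77), beside 7.58% of all genes. Both had sham groups that did not overlap, as 18% of all genes did. The interactions rest on the same arrays.

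JNK1-/- livers ligated for 48 h were set against control livers ligated for 48 h to ask what loss of JNK1 in all cells changed early. Angptl4, Acadm and both genes of the carnitine route, Cpt1a and Slc25a20, were higher in JNK1-/-. Cpt1a read 11.71, 11.75 and 11.76 in JNK1-/- liver, against 11.06, 10.75 and 11.08 in control liver. The JNK1-/- arrays lay close together and above the control arrays, a 1.71-fold difference (log2 difference 0.77, SE 0.14, adjusted p = 0.00598 by limma). Slc25a20 read 9.77, 9.57 and 9.73 in JNK1-/- liver, against 9.13, 9.02 and 9.08 in control liver (log2 difference 0.61, SE 0.11, adjusted p = 0.00470 by limma). Acadm read 11.68, 11.71 and 11.92 in JNK1-/- liver, against 11.43, 11.27 and 11.46 in control liver (log2 difference 0.38, SE 0.09, adjusted p = 0.0214 by limma). For both genes each JNK1-/- array was above each control array. Angptl4 read 10.02, 9.65 and 9.87 in JNK1-/- liver, against 7.94, 7.80 and 8.84 in control liver. The difference was 3.14-fold without overlap (log2 difference 1.65, SE 0.31, adjusted p = 0.00623 by limma).

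These 4 of 8 members called higher stand beside 1.2% of all genes called higher and 2.3% called in either direction. The members' median difference was 0.45, against 0.00 over all genes. Ehhadh, the peroxisomal bifunctional enzyme, lay the other way, at 9.95, 9.85 and 9.85 in JNK1-/- liver, against 10.98, 10.93 and 10.51 in control liver. The groups did not overlap, yet the difference of -0.92 (SE 0.26) missed the threshold (adjusted p = 0.0741 by limma). It was called with low-level genes left out (adjusted p = 0.0483), with array weights (0.00692) and in a fit to these groups alone (0.0453). Ppara read 9.75, 9.69 and 9.73 in JNK1-/- liver, against 9.44, 9.38 and 9.47 in control liver, again without overlap and without a call (log2 difference 0.29, SE 0.11, adjusted p = 0.209). In all, 6 of the 8 members had groups that did not overlap, beside 21.3% of all genes. Acot3 (0.52) and Pdk4 (-0.64) overlapped. Both comparisons at 48 h share the ligated control arrays, so the falls after ligation and the higher values in JNK1-/- are not independent of each other. The Acadm call was lost without control replicate 1 (adjusted p = 0.0550) or 2 (0.120), without JNK1-/- replicate 3 (0.0860) or in a fit to these groups alone (0.170), where Angptl4 also lost its call (0.0566). Of the 12 hepatocyte markers 1 was called higher, with list means of 12.18 to 12.23 on JNK1-/- arrays and 12.08 to 12.09 on control arrays. What that shift contributed was not tested.

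After ligation for 28 d, JNK1-/- liver gave 0 members called against control liver by limma, beside 0.627% of all genes, and 2 members at an unadjusted p under 0.05, beside 12.4%. Angptl4 read 8.17, 8.87 and 9.16 in JNK1-/- liver, against 10.41, 9.55 and 9.20 in control liver. The groups met without overlapping, and the difference was -0.98 (SE 0.31, adjusted p = 0.173 by limma). Acadm read 11.64, 11.55 and 11.67 in JNK1-/- liver, against 11.31, 11.39 and 11.30 in control liver, a difference of 0.29 without overlap (SE 0.09, adjusted p = 0.141). Cpt1a read 11.31, 11.15 and 11.18 in JNK1-/- liver, against 11.91, 11.23 and 11.30 in control liver, with overlap. Slc25a20 differed by 0.09, Ehhadh by 0.17, Ppara by 0.21, Acot3 by 0.13 and Pdk4 by -0.42. Ppara (10.02, 9.64, 9.35), Acot3 (6.89, 5.51, 4.93) and Ehhadh (11.57, 11.03, 10.47) were each highest on JNK1-/- replicate 1 and lowest on replicate 3. The stellate cell and myofibroblast list averaged 6.79, 7.08 and 8.03 on those arrays, and its part in the spread was not tested.

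The genotype difference for JNK1-/- was tested for change between the times, and 2 of 8 members were called, beside 0.744% of all genes. For Angptl4 it was lower at 28 d than at 48 h (interaction -2.64 log2 units, SE 0.43, adjusted p = 0.0122 by limma). For Cpt1a it was lower too (interaction -1.04, SE 0.20, adjusted p = 0.0226). Cpt1a lost this call without control replicate 1 (adjusted p = 0.0528) or 2 (0.0670) ligated for 48 h. Ehhadh had an interaction of 1.09 (SE 0.37, adjusted p = 0.162) and Slc25a20 one of -0.52 (SE 0.15, adjusted p = 0.106), neither called.

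Deletion in hepatocytes was addressed by JNK1Δhepa liver against control liver. After 48 h of ligation limma called 0 members and 0 of all genes, with 0 members and 3.23% of all genes at an unadjusted p under 0.05. The deleted gene was among those not called. Mapk8 differed by -0.66 without overlap at 48 h (adjusted p = 0.9995 by limma) and by -0.33 at 28 d (adjusted p = 0.513). The absence of calls therefore does not show that deletion in hepatocytes had no effect. Angptl4 read 8.72, 7.77 and 8.44 in JNK1Δhepa liver, against 7.94, 7.80 and 8.84 in control liver. Cpt1a read 11.29, 11.25 and 11.02 in JNK1Δhepa liver, against 11.06, 10.75 and 11.08 in control liver. All 8 members overlapped between the groups, and their differences ran from -0.04 for Acadm to 0.34 for Pdk4. The 95% confidence interval of the Angptl4 difference (0.12) went from -0.52 to 0.76, and that of the Cpt1a difference (0.22) from -0.08 to 0.52.

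After 28 d, Slc25a20 was the 1 member called higher in JNK1Δhepa, beside 0.122% of all genes called higher and 0.228% called in either direction. With each array centred on its median, 1.2% of all genes were called higher. It read 9.74, 9.79 and 9.81 in JNK1Δhepa liver, against 9.28, 9.38 and 9.03 in control liver, without overlap (log2 difference 0.55, SE 0.11, adjusted p = 0.0496 by limma). The call sat at the threshold. With the replicate number as a block it was lost (adjusted p = 0.0524), as it was without JNK1Δhepa replicate 1, whose Mapk8 read at the control level (difference 0.57, adjusted p = 0.149). It was also lost without JNK1Δhepa replicate 2 (0.164) or 3 (0.104) and without control replicate 3 (0.198). Acadm read 11.48, 11.62 and 11.55 in JNK1Δhepa liver, against 11.31, 11.39 and 11.30 in control liver, without overlap but without a call (0.22, adjusted p = 0.233). Angptl4 read 9.83, 9.25 and 9.59 in JNK1Δhepa liver, against 10.41, 9.55 and 9.20 in control liver. These overlapped and differed by -0.16. The stellate cell and myofibroblast list averaged 6.37 to 6.98 on the JNK1Δhepa arrays, against 6.68 to 9.21 on the control arrays, and its part was not tested. No change of the JNK1Δhepa difference between the times was called by limma (0 members and 0 genes). At an unadjusted p under 0.05 stood 2 members, Slc25a20 and Acadm, beside 7.11% of all genes.

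The mutants were compared directly, since a call in 1 and not in the other does not show that they differ. After 48 h, 4 of 8 members were called higher in JNK1-/- than in JNK1Δhepa liver, beside 1.2% of all genes called higher and 2.44% called in either direction. Angptl4 was 2.90-fold higher (JNK1-/- 9.85 ± 0.19, JNK1Δhepa 8.31 ± 0.49, log2 difference 1.54, SE 0.31, adjusted p = 0.0108 by limma). Cpt1a differed by 0.56 (SE 0.14, adjusted p = 0.0437), Slc25a20 by 0.52 (SE 0.11, adjusted p = 0.0137) and Acadm by 0.42 (SE 0.09, adjusted p = 0.0115). None of the 4 had overlapping groups, and 6 of the 8 members did not overlap, beside 22.2% of all genes. Ehhadh read 9.95, 9.85 and 9.85 in JNK1-/- liver, against 10.46, 10.55 and 11.56 in JNK1Δhepa liver, without overlap and short of a call (log2 difference -0.97, SE 0.26, adjusted p = 0.0550). Leaving out single arrays gave 0 to 3 calls here, and the shares of all genes called in those fits are not given. Cpt1a was lost without any 1 of the 6 arrays (adjusted p 0.0718 to 0.194). Slc25a20 was lost without JNK1-/- replicate 1 (0.0596) or JNK1Δhepa replicate 1 (0.0733) or 2 (0.0629). Acadm was lost without JNK1-/- replicate 3 (0.0509) or JNK1Δhepa replicate 2 (0.0527), and Angptl4 without JNK1Δhepa replicate 2 (0.0673). After 28 d the direction for Slc25a20 was the other one, with 9.42, 9.34 and 9.20 in JNK1-/- liver, against 9.74, 9.79 and 9.81 in JNK1Δhepa liver (log2 difference -0.46, SE 0.11, adjusted p = 0.0465 by limma). It was the 1 member called, beside 0.962% of all genes, and its call was lost without any 1 of the 6 arrays (adjusted p 0.0719 to 0.231).

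Within ligated liver of 1 genotype, 28 d was compared with 48 h, with age differing too. In control liver Angptl4 was 2.88-fold higher at 28 d (log2 difference 1.52, SE 0.31, adjusted p = 0.00412 by limma) and Cpt1a 1.43-fold (0.52, SE 0.14, adjusted p = 0.0265), 2 of 8 members beside 10.4% of all genes. The Cpt1a call was lost without the ligated 28 d replicate 1 (adjusted p = 0.151) or the 48 h replicate 1 (0.0511) or 2 (0.124). In JNK1Δhepa liver Slc25a20 (0.61, SE 0.11, adjusted p = 0.000826), Angptl4 (1.24, SE 0.31, adjusted p = 0.00804) and Cpt1a (0.48, SE 0.14, adjusted p = 0.0256) were called higher by limma, 3 of 8 beside 18% of all genes. Angptl4 missed the threshold without the 48 h replicate 2 (adjusted p = 0.0551), and Cpt1a without the 48 h replicate 3 (0.112) or the 28 d replicate 1 (0.133) or 3 (0.0536). In JNK1-/- liver Ehhadh was called higher at 28 d (1.14, SE 0.26, adjusted p = 0.0247), 1 of 8 beside 2.84% of all genes. Its call was lost without the 28 d replicate 1 (adjusted p = 0.125) or 2 (0.0762) or the 48 h replicate 2 (0.0771) or 3 (0.0609). Angptl4 in JNK1-/- liver differed by -1.11 (SE 0.31, adjusted p = 0.0553), Cpt1a by -0.53 (SE 0.14, adjusted p = 0.0520) and Slc25a20 by -0.37 (SE 0.11, adjusted p = 0.0702), each without overlap and none called. In all, 5 of 8 members did not overlap in JNK1-/- liver, beside 21.6% of all genes. With each array centred on its median, which shifts this comparison by -0.13, Angptl4, Cpt1a and Slc25a20 were called lower. Beside them 2.53% of all genes were called lower, in place of 0.898%, and 28.5% of called genes were higher in place of 68.4%. Ppara differed by 0.04 or less in control and JNK1Δhepa liver and by -0.05 in JNK1-/- liver.

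A list of 82 other genes of the pathway placed the members in context, of which 70 had a probe set of their own. In control liver ligated for 48 h, 25 of the 70 fell (35.7%, beside 3.83% of all genes) and 4 rose (5.71%, beside 5.61%), with a median difference of -0.31 against -0.03 over all genes. In the list of mitochondrial entry and beta-oxidation 9 of 15 fell, among them Cpt2, the inner partner of Cpt1a (-0.63), Etfdh, which passes electrons to the respiratory chain (-0.66), and Eci2 (-0.73), an enoyl-CoA isomerase. In the peroxisomal list 4 of 9 fell, Pex11a (-0.97) and Ech1 (-0.93) included, and Abcd2, a peroxisomal fatty acid transporter, rose (1.51). Each gene was placed in 1 list only, and the compartment of its protein was not tested. The largest fall of the list was that of Lpin1, a phosphatidate phosphatase and PPAR-alpha coactivator, which read 9.10, 9.15 and 8.65 in ligated liver, against 11.58, 11.58 and 11.26 in liver labelled sham (log2 difference -2.51, SE 0.29, adjusted p = 2.73e-05 by limma). The next largest called falls were those of G0s2 (-1.45) and the thioesterase gene Acot1 (-1.36). Cd36, a fatty acid uptake protein, rose by 1.27, and Lpl, the lipase that Angptl4 inhibits, read 9.97, 9.98 and 9.28 in ligated liver, against 8.89, 8.53 and 8.24 in sham (log2 difference 1.19, adjusted p = 0.00190). Pparg, the related receptor of fat storage, rose by 0.96 against the arrays labelled control sham 48 h. With control sham 28 d in place the Pparg difference was 0.22 (adjusted p = 0.322) and that of Abcd2 0.72 (adjusted p = 0.0955), neither called by limma. In that comparison 23 of the 70 fell, beside 5.13% of all genes, and 4 rose, beside 6.8%. They include 18 of the falls and 2 of the rises called before. The falls of Acot1, Acot12, Creb3l3, G0s2, Plin4, Plin5 and Ppard were no longer called (-0.76 to -0.11). The sham groups themselves differed for some of these genes. At 28 d against 48 h, sham liver had Pparg called higher (0.73, adjusted p = 0.0284 by limma) and G0s2 lower (-1.34, adjusted p = 0.0259). Abcd2 differed by 0.79 (adjusted p = 0.424). In calls lost with control sham 28 d, ligation, age and time after surgery cannot be told apart. Of the macrophage list 1 of 6 genes was called higher at 48 h, with means of 9.22 to 9.40 on ligated arrays and 9.14 to 9.25 on arrays labelled sham, and its part in these values was not tested.

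At 28 d, 32 of the 70 fell (45.7%, beside 11.5% of all genes) and 9 rose (12.9%, beside 11.7%) in ligated control liver, with a median of -0.40 against -0.03 over all genes. The mitochondrial list had 12 of 15 lower, with Eci1 at -1.05, Decr1 at -0.98 and Cpt2 at -0.83, and the peroxisomal list 6 of 9. Fabp1, the main fatty acid binding protein of hepatocytes, read 7.41, 9.31 and 10.88 in ligated liver, against 12.63, 12.52 and 12.69 in sham (log2 difference -3.41, SE 0.68, adjusted p = 0.00111 by limma). Cyp4a12a, a male-biased omega-hydroxylase, read 10.30, 9.36 and 6.04 in ligated liver, against 12.55, 12.49 and 12.21 in sham (log2 difference -3.85, SE 0.80, adjusted p = 0.00144). The ligated arrays were below sham for both and far apart from each other. The paralog Cyp4a12b was called too (-2.53), and signal shared between the probes of these genes was not tested. Lpl (2.0), Hilpda (1.59), a lipid droplet protein that restrains triglyceride lipase, Cd36 (1.5) and Ppargc1a (1.46), a coactivator of PPAR-alpha, rose. Of the macrophage list 3 of 6 genes were called higher here (median difference 0.66), with means of 9.18, 9.66 and 9.85 on ligated arrays, against 8.91, 9.12 and 8.67 in sham. Lpl and Cd36 are also expressed by macrophages, and the part of these cells in the rises was not tested. The interaction with time was called for Lpin1 (2.22), Ppargc1a (2.03) and Plin4 (1.87), 3 of 70 (4.29%, beside 1.3% of all genes). In a fit to only the compared groups, 18 of the 70 fell at 28 d. The share of all genes called lower in that fit is not given here, so this count has no background beside it.

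**Figure D3:**
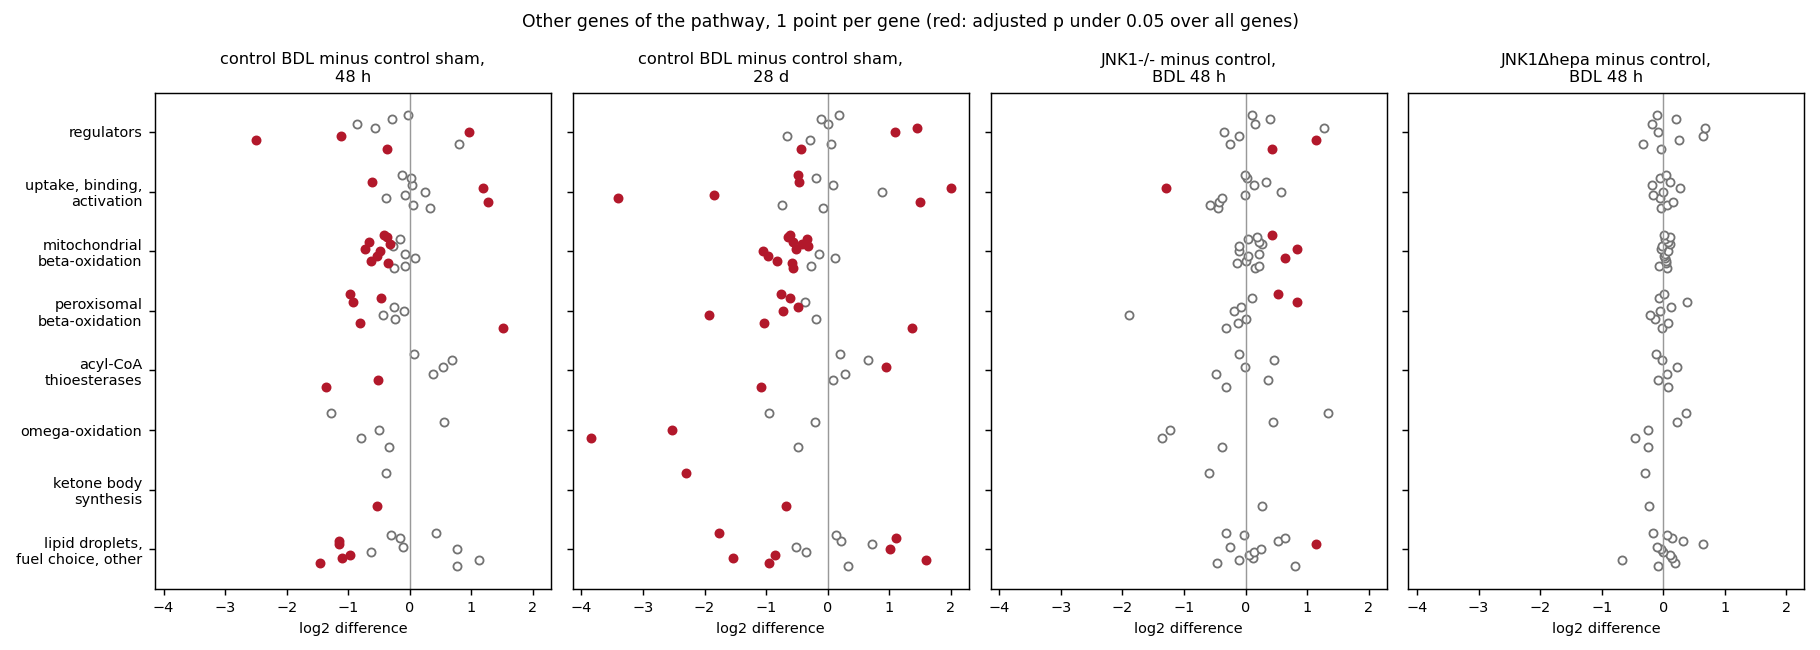
Log2 differences (horizontal axis) of the 70 measured pathway genes, 1 point per gene in rows by list, with called genes filled in red. The panels show ligation against sham in control liver at 48 h and 28 d and JNK1-/- and JNK1Δhepa against control, both ligated for 48 h. In the list of mitochondrial entry and beta-oxidation 9 of 15 genes fell with ligation at 48 h and 12 of 15 at 28 d.

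JNK1-/- liver ligated for 48 h had 8 of the 70 genes higher than control liver (11.4%, beside 1.2% of all genes) and 1 lower (1.43%, beside 1.11%). Those higher were Lpin1 (1.15), Plin4, a lipid droplet coat protein (1.14), Eci2 (0.84), Ech1 (0.84), Crat, a carnitine acyltransferase (0.63), Pex11a (0.52), the transcription factor gene Creb3l3 (0.43) and Hadhb, a subunit of the mitochondrial trifunctional protein (0.43). Eci2 read 10.18, 9.86 and 9.82 in JNK1-/- liver, against 9.07, 8.89 and 9.36 in control liver (adjusted p = 0.00485 by limma). Lpl was the gene called lower, with 8.22, 8.92 and 8.22 in JNK1-/- liver, against 9.97, 9.98 and 9.28 in control liver (log2 difference -1.29, SE 0.22, adjusted p = 0.00423). Neither gene had overlapping groups. The count of 8 fell to 3 without control replicate 1, to 2 without control replicate 2 and to 1 in a fit to these groups alone, and it was 18 with array weights. The shares of all genes called higher under these settings are not given here, so these counts cannot be set against a background. At 28 d, JNK1-/- liver had 0 of the 70 called by limma. At an unadjusted p under 0.05 it had 12 of 70, beside 2328 of 18820 genes (12.4%). JNK1Δhepa liver had 0 of the 70 called at 48 h, with 3 of 70 at an unadjusted p under 0.05, beside 607 of 18820 genes (3.23%). At 28 d it had 1 called by limma, Mgll, a monoacylglycerol lipase (0.96, adjusted p = 0.0496). At an unadjusted p under 0.05 stood 20 of 70, beside 2798 of 18820 genes (14.9%). The call of Mgll was lost without JNK1Δhepa replicate 1 as well.

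Genes whose 8 group means ran most like those of Ppara were Tcf15, Rbbp8nl and Rnase13 (Pearson r = 0.99 each), Edc3 and Tsc22d3 (0.98 each), out of 18057 genes ranked with predicted genes left out. Of these Tsc22d3, a glucocorticoid-induced gene, averaged 7.93 ± 0.06 in control liver ligated for 48 h, 8.32 ± 0.19 in control liver ligated for 28 d, 9.51 ± 0.21 in the group labelled control sham 48 h and 9.18 ± 0.37 in control sham 28 d. Rbbp8nl spanned only 3.77 to 3.99 over the groups. Among the members the same measure was 0.69 for Angptl4, 0.67 for Slc25a20, 0.19 for Cpt1a, 0.03 for Ehhadh, -0.18 for Acadm, -0.73 for Pdk4 and -0.86 for Acot3. It is a description over 8 group means from the same arrays.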

How the data were processed

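Liver RNA with an integrity number above 8.0 served as 100 ng of input for biotin-labelled cDNA, per the labels' protocols, with 1 array for each of 24 samples. The authors deposited log2 intensities per probe set made with RMA, per the submitters' processing notes. Neither the RMA version nor the genome build behind the array design is stated in the sources used.

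Of 35556 probe sets in the deposited file, 21218 named a single gene symbol, 1881 named several and 12457 named none. The brightest probe set by its mean over 24 arrays stood for each of 18820 symbols. Old symbols were updated through gene numbers, and 33 probe sets were not found in the gene list used. Arrays correlated with each other at 0.9969 or less, and none was a copy of another.

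The model was fitted with limma 3.58.1 (R 4.3.3, data.table version 1.17.8), with a mean for each of 8 groups, 16 residual degrees of freedom and moderated variances, and gave 15 comparisons. Adjustment for multiple testing followed Benjamini and Hochberg over all 18820 symbols, and "called" means an adjusted p under 0.05. Median SEs were 0.129 (2 groups) and 0.183 (interactions), a precision that the number of arrays limits. The labels do not say what separates replicates beyond their number, so p-values measure the spread between these samples. The code was tested on simulated data with known changes.

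The 8 members, the pathway and marker lists and the comparisons were chosen with earlier results of these data known. All 8 members were named in every comparison. The rule for naming pathway genes was by size, up to 3 per direction among those called without overlap between groups. It was followed for ligation against sham, its interaction with time, and each mutant against control. The genes that it picked in the other comparisons are not all named above. Further pathway genes were picked from the called ones after their values were seen.

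To check for pairing, the deviations of same-numbered arrays from their group means were correlated. In JNK1Δhepa against control at 28 d all 3 values were over 0.1 (0.50, 0.24 and 0.16), although not every array was closest to its own number. In the other comparisons of groups at least 1 value was not. The replicate block is therefore given beside that comparison.

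Alternatives were quantile normalization, centring on array medians, a filter on symbols under the median level, the mean of a symbol's probe sets, an intensity trend with robust variances, array weights, the replicate block, a fit to only the groups compared, sham 28 d in place of sham 48 h, and leaving out single arrays. A fit without the arrays labelled control sham 48 h, and all alternatives for the pathway counts, were added after the data were seen. Promoter sequences came from RefSeq (GRCm38.p6).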

Additional observations from a re-analysis of the deposited data

Results flagged for a closer look

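In 3 cases a member's difference was itself different between the times by an interaction test. The effect of ligation on Angptl4 in control liver was 2.29 log2 units higher at 28 d than at 48 h (adjusted p = 0.0118 by limma). This rests in part on the arrays labelled control sham 48 h, whose Mapk8 values were below those of the other control arrays. Without any 1 of the 12 arrays involved, and under each other alternative, it remained called (adjusted p 0.000921 to 0.0397). Leaving out single arrays does not test the doubt about that sham group as a whole, and no other sham group was taken at 48 h. The interaction combines a difference of 1.52 between the ligated control groups with one of -0.77 between the sham groups.

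The difference between JNK1-/- and control liver after ligation changed for Angptl4 by -2.64 log2 units from 48 h to 28 d (adjusted p = 0.0122 by limma). In the means, Angptl4 was 9.85 in JNK1-/- and 8.19 in control liver at 48 h, and 8.73 in JNK1-/- and 9.72 in control liver at 28 d. The call was lost in a fit to only the groups compared (adjusted p = 0.167) and held in the other alternatives run. For Cpt1a the change was -1.04 (adjusted p = 0.0226), with means of 11.74 in JNK1-/- and 10.96 in control liver at 48 h, and 11.21 in JNK1-/- and 11.48 in control liver at 28 d. Its call was lost in a fit to only the groups compared (adjusted p = 0.186) and without control replicate 1 (0.0528) or 2 (0.0670) of 48 h. Both interactions use the same ligated control arrays.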

How the results depend on the processing

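No called difference of a member reversed under any alternative run. The numbers of members called that moved by over 1.5 times were as follows. A fit to only the groups compared gave 1 in place of 2 for ligation at 28 d, 1 in place of 0 for sham over time, 0 in place of 2 for control liver ligated for 28 d against 48 h, 0 in place of 1 for JNK1-/- liver over time, 0 in place of 1 for JNK1Δhepa against control at 28 d, 1 in place of 4 and 0 in place of 1 for JNK1-/- against JNK1Δhepa at 48 h and 28 d, and 0 in place of 2 for the change of the JNK1-/- difference. That fit has fewer arrays, and the shares of all genes that it called are not given beside these counts. For JNK1-/- liver at 28 d against 48 h, quantile normalization gave 2, centring on array medians 4, leaving out low-level symbols 4, the intensity trend 2 and array weights 3, in place of 1. Centring gave 1 in place of 2 for control liver over time. JNK1Δhepa against control at 28 d gave 0 in place of 1 with quantile normalization, with the mean of all probe sets and without the 3 arrays labelled control sham 48 h, and JNK1-/- against JNK1Δhepa at 28 d likewise gave 0 in place of 1 without those arrays. With centring, 1.01% of all genes were called higher and 2.53% lower for JNK1-/- liver over time. For control liver over time these shares were 3.09% and 8.84%. The shares of all genes called under the other settings are not given beside these counts. The changed counts therefore cannot be read as a result about the members, and their cause was not tested.

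With the replicate number as a block, 2 members in place of 1 were called for the interaction of ligation and time, 3 in place of 1 for JNK1-/- liver over time, and 0 in place of 1 for JNK1Δhepa against control at 28 d. The block changed no other number of members called. The shares of all genes called with the block are not given, so these counts have no background beside them.

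Leaving out 1 array at a time gave 3 to 4 members called for ligation at 48 h, 2 to 4 at 28 d, 1 to 2 for their interaction, 0 for sham over time, 1 to 2 for control liver over time, 0 to 2 for JNK1-/- liver over time, 2 to 3 for JNK1Δhepa liver over time, 3 to 4 for JNK1-/- at 48 h, 0 for JNK1-/- at 28 d, 0 for JNK1Δhepa at 48 h, 0 to 2 for JNK1Δhepa at 28 d, 0 to 3 and 0 for JNK1-/- against JNK1Δhepa at 48 h and 28 d, 1 to 3 for the change of the JNK1-/- difference and 0 for that of JNK1Δhepa. The shares of all genes called in each of these fits are not given beside the ranges. A change of the members therefore cannot be told apart here from a change over all genes. Acot3 lay under the median level and was not tested with low-level symbols left out.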
